A study of Mus musculus with 2 samples.

Results

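The subject here is 10 genes of the heat shock chaperone system, followed across the leukocytes of mouse pancreatic islets, namely Hsph1, Stip1, Hsp90aa1, Hsp90ab1, Hspa8, Hspa1a, Hspa1b, Dnajb1, Hspd1 and Hspe1. They were taken by symbol from the 32285 features of the count matrices, and all 10 were present. The choice rested on measured values, because Hsph1 and Stip1 had been higher to a like degree in every large cell class of 1 of the 2 libraries. Differences between the libraries in these 10 genes are therefore given as a description, with no test.

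Chaperones bind proteins that are unfolded or only partly folded and release them in a controlled way. In the cytosol an Hsp70 protein takes up the client first, with a J-domain protein such as Dnajb1 delivering it and a nucleotide exchange factor such as Hsph1 (Hsp110) resetting the cycle, and Stip1 (Hop) then holds Hsp70 and Hsp90 together while the client is passed on. Hspd1 (Hsp60) and its lid Hspe1 (Hsp10) form the folding chamber of the mitochondrial matrix. Many of these genes are activated by heat shock factor 1, which binds repeats of the sequence nGAAn in promoters.

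The study set 2 groups of female mice aged 12 weeks side by side, each with 1 library. The first, WT NOD, is the non-obese diabetic strain, in which leukocytes infiltrate the islets and diabetes follows. The second is labelled NOD.Cxcl16-/-, the same strain lacking the chemokine gene Cxcl16 in the whole animal by its label, which names no promoter or Cre. For both groups the labels describe the same handling: collagenase digestion of the pancreas, hand-picking of islets, dispersal without enzymes and sorting of live CD45+ CD31- cells, followed by 10x Genomics 3' v3.1 libraries. Whether animals were pooled is not given in the sources used here, so each group is 1 sample, and genotype, animals, sort and capture cannot be told apart.

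The promoters are shown first, with matches to the repeats that heat shock factor 1 binds. A match is one of letters only, and binding was not measured. RefSeq windows of the build GRCm38.p6, from 250 bases before to 50 after each start, were held for 7 of the 10 genes, and were searched on both strands for 2 adjoining inverted units (GAANNTTC or TTCNNGAA, which can overlap each other) and for the same pair followed by 1 more unit after a gap of 2 bases, called 3 units below. Of 32851 such windows of mouse genes, 15.1% held a 2-unit match and 0.603% a 3-unit match. Units that depart from these letters or gaps, and sites outside the windows, were not searched for, so a window without a match may still lie near one. The stretches around the matches before the start are given below 5' to 3' on the strand of the gene, with the matched units in capitals.
Hspd1: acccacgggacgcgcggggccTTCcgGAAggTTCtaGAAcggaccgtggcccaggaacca
Hspe1: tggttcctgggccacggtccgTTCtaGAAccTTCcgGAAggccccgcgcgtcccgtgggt
Hsph1: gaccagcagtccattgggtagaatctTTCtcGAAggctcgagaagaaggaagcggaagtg
Hspa1b: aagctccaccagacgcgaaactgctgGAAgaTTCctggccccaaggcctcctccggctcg
Hspa1a: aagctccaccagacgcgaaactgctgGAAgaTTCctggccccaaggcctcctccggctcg

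Hspd1 and Hspe1 lie head to head on opposite strands. Their GENCODE gene starts are 111 bases apart, and the genes overlap between these starts. The stretches printed for them are the 2 strands of 1 site of 4 units at chr1:55088038-55088097. The site lies before the Hspe1 start by 89 bases, counted to its first capital. For Hspd1 it lies 144 bases before the start of only 1 of its 2 RefSeq windows. The other Hspd1 window (chr1:55088194-55088493) held no match, and by the GENCODE start the site lies inside the Hspd1 gene. The Hsph1 stretch (chr5:149636336-149636395, minus strand) held 2 units whose first base lay 54 bases before the start for 1 RefSeq start and 33 before it for the other. A 3-unit match lay after the Hsph1 start in both windows. Hspa1a (chr17:34972227-34972286) and Hspa1b (chr17:34959309-34959368), both on the minus strand with starts 12918 bases apart, gave the same printed letters, with 2 units 104 bases before the start. No match was found in the windows of Stip1 (1 window) or Dnajb1 (2 windows). Hsp90aa1, Hsp90ab1 and Hspa8 had no window in the table.

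The files held 13859 barcodes for WT NOD and 10554 for the library labelled NOD.Cxcl16-/-, with medians of 3808 and 5054 unique molecular identifiers (UMIs, each standing for 1 captured RNA molecule) per barcode. After removal of barcodes with fewer than 500 genes or more than 10% mitochondrial UMIs and of scored doublets, 10720 and 9325 cells remained, with medians of 3849 and 4894 UMIs. The libraries shared 45 barcodes (0.325% and 0.426% of each). Over all kept cells Cxcl16 itself was detected in both, at 75.5 and 94.3 CPM (counts per 1000000 UMIs). A 3' tag does not check the label where the deleted part is not given. The second library is therefore named only by its label, and nothing below is ascribed to the genotype. Cells were assigned by marker gates, and 4 classes had at least 200 cells per library, listed WT NOD first: CD8 T-like (2269 and 1493), CD4 T-like (1220 and 1301), Treg-like (259 and 422) and B-like (1717 and 2063). A further 4 had at least 50: gamma-delta T-like (173 and 157), NK-like (110 and 111), macrophage-like (63 and 165) and migratory DC-like (74 and 140). By class, Cxcl16 was lower in the second library in macrophage-like (878.5 and 510 CPM), migratory DC-like (634 and 394 CPM) and NK-like cells. The NK-like value rested on 4 and 3 UMIs. In all other classes compared it was higher there, at 31.2 CPM or less. In every one of these 8 classes at least 5 of its markers, and all but 1 or none of them, were detected in 20% of the cells or more. The gates drew on these same markers, so this follows in part from the assignment and is no separate check of it. The leukocyte gene Ptprc was present in at least 82.2% of the cells of each class in WT NOD and 82.7% in the other library.

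For each class and library the UMIs of a gene were added up and divided by the sum for all genes, which gives its CPM. Ratios set the library labelled NOD.Cxcl16-/- over WT NOD and are log2 values, with 1 CPM first added to numerator and denominator. Intervals are exact 95% counting intervals, and cover neither animal nor library variation. "Higher" and "lower" below refer to these 2 libraries.

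**Figure D1:**
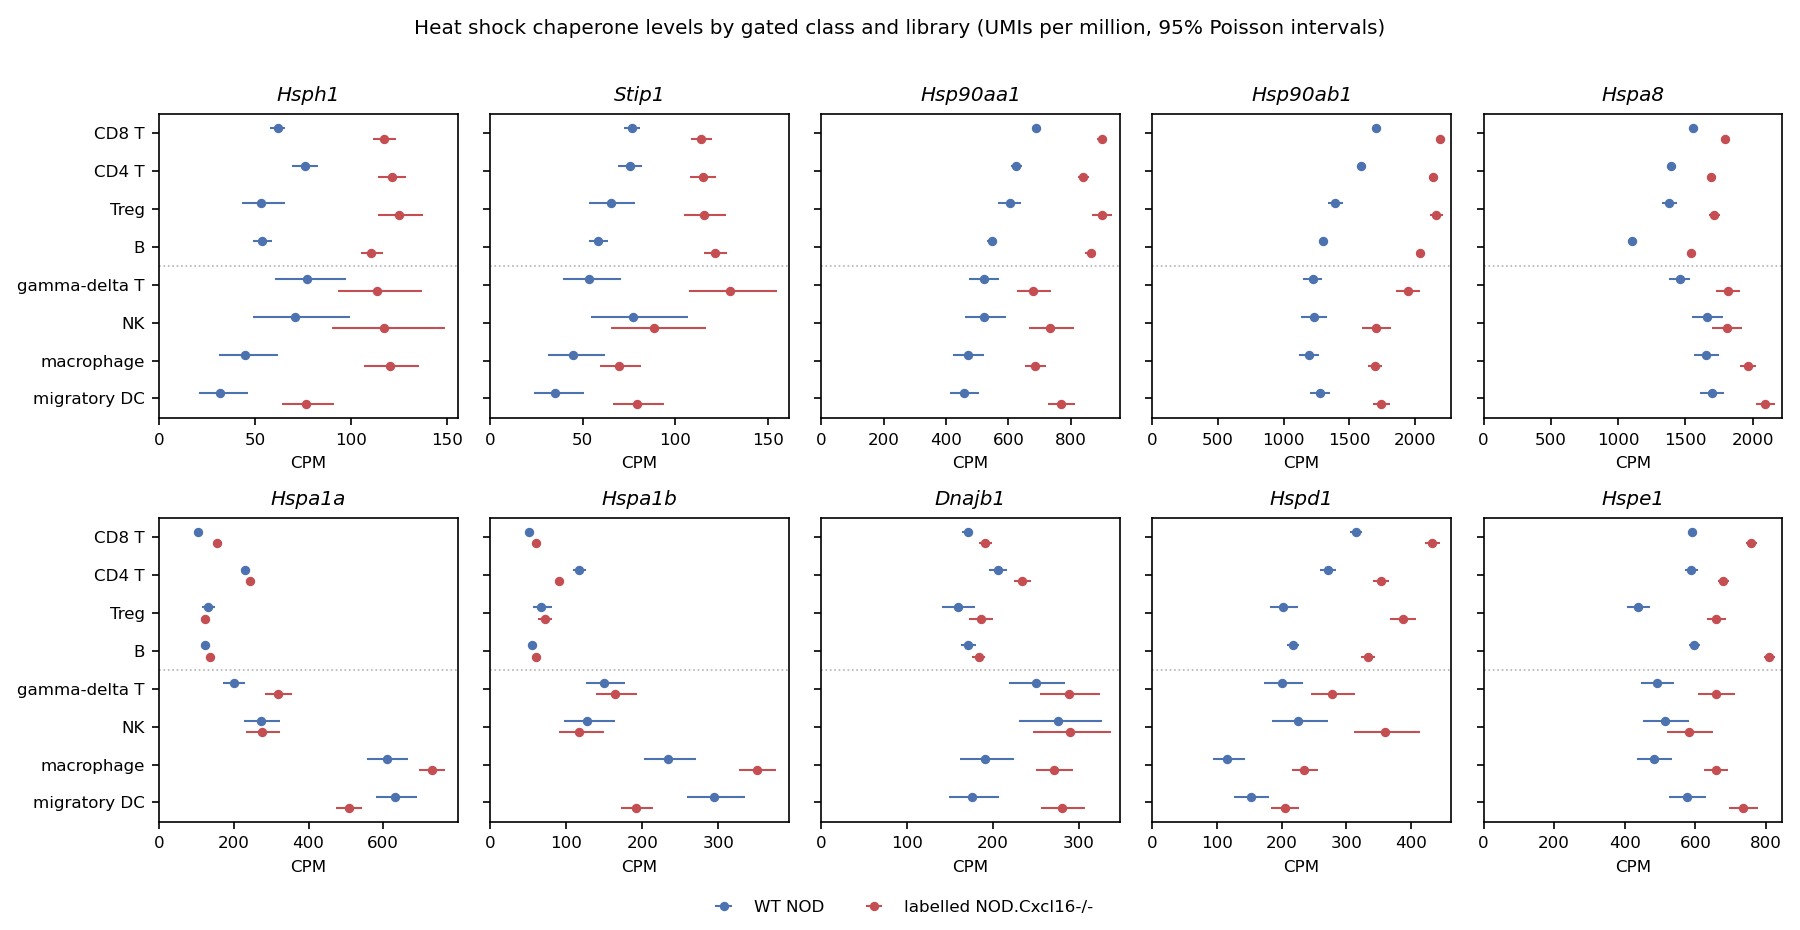
Levels of the 10 chaperones in 8 gated classes, in CPM on a linear axis from 0, with WT NOD in blue and the library labelled NOD.Cxcl16-/- in red; points are single libraries and bars 95% Poisson intervals, and the dotted line separates the 4 large classes from the 4 small ones. Hsph1 lies to the right in red in every class, from 31.6 to 77.2 CPM in blue against 76.8 to 125 CPM in red, whereas the Hspa1a and Hspa1b points differ mainly by class.

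Hsph1, the Hsp110 exchange factor for Hsp70 (chr5:149614287-149636376, minus strand), was higher in the library labelled NOD.Cxcl16-/- in all 8 classes. CD8 T-like cells had 61.8 CPM (960 UMIs) in WT NOD and 117.5 CPM (1496 UMIs) in the other library. CD4 T-like cells gave 75.8 and 121 CPM, Treg-like cells 53.3 and 125 CPM, and B-like cells 53.9 and 111 CPM. The log2 ratios were 0.92 (0.80 to 1.03), 0.67 (0.52 to 0.82), 1.22 (0.89 to 1.55) and 1.03 (0.88 to 1.18) in that order, and in none of these 4 classes did the CPM intervals of the libraries overlap. The small classes gave 0.55 in gamma-delta T-like, 0.71 in NK-like, 1.26 in migratory DC-like and 1.41 in macrophage-like cells. Each of those 4 intervals also lay above 0, though on as few as 26 UMIs in WT NOD.

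The spread of Hsph1 between classes was narrower in the second library. In WT NOD its level ran from 31.6 CPM in migratory DC-like to 77.2 CPM in gamma-delta T-like cells, a 2.44-fold range. In the library labelled NOD.Cxcl16-/- it ran from 76.8 CPM in migratory DC-like to 125 CPM in Treg-like cells, a 1.63-fold range. All neighbours in the WT NOD order overlapped in their intervals. In the other library only the step from B-like to migratory DC-like cells did not.

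Stip1, the Hop scaffold between Hsp70 and Hsp90 (chr19:7020702-7039967, minus strand), was also higher in the 4 large classes. Its levels were 76.4 CPM in WT NOD and 114 CPM in the other library in CD8 T-like cells, 75.3 and 115 CPM in CD4 T-like cells, 65.1 and 115 CPM in Treg-like cells, and 58.4 and 121 CPM in B-like cells. The 4 WT NOD values lay between 58.4 and 76.4 CPM and the 4 others between 114 and 121 CPM, with no overlap. The log2 ratios were 0.57 (0.46 to 0.68), 0.60 (0.45 to 0.75), 0.82 (0.51 to 1.13) and 1.04 (0.90 to 1.19). The CD8 T-like value was a 1.49-fold difference and stayed just under the 1.5-fold mark used for counting, and the CD4 T-like value, 1.53-fold, lay just over it. Of the small classes, gamma-delta T-like (1.27), migratory DC-like (1.15) and macrophage-like (0.63) cells had intervals above 0, while NK-like cells gave 77.3 and 88.2 CPM, a ratio of 0.19 whose interval (-0.45 to 0.84) spanned 0.

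The 2 cytosolic Hsp90 genes followed at smaller ratios and higher counts. Hsp90aa1, the stress-inducible form (chr12:110690605-110702728), had 688 and 901 CPM in CD8 T-like, 626 and 840 CPM in CD4 T-like, 604 and 900 CPM in Treg-like and 547 and 863 CPM in B-like cells. Hsp90ab1, the constitutive form (chr17:45567775-45573271), had 1699 and 2192 CPM in CD8 T-like, 1591 and 2133 CPM in CD4 T-like, 1390 and 2163 CPM in Treg-like and 1298 and 2040 CPM in B-like cells. In both genes the CPM intervals of the libraries were apart in the 4 large classes, and the log2 ratio was larger in the same class order, from CD8 T-like (0.39 for Hsp90aa1, 0.37 for Hsp90ab1) over CD4 T-like (0.43 and 0.42) and Treg-like (0.57 and 0.64) to B-like cells (0.66 and 0.65). In all 8 classes the ratio of Hsp90aa1 lay between 0.39 and 0.75 and that of Hsp90ab1 between 0.37 and 0.67, and every interval was above 0. For both, CD8 T-like cells had the highest level in either library, though in the second library their intervals overlapped those of Treg-like cells. The range over classes was 1.51-fold and 1.43-fold in WT NOD, and 1.32-fold and 1.29-fold in the other library.

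Among the Hsp70 genes, the constitutive member and the inducible pair behaved differently. Hspa8, the constitutive Hsc70 (chr9:40800984-40810087), had 1559 and 1796 CPM in CD8 T-like, 1395 and 1690 CPM in CD4 T-like, 1380 and 1716 CPM in Treg-like and 1100 and 1539 CPM in B-like cells. Its log2 ratios of 0.20, 0.28, 0.32 and 0.48 were small but apart from 0, and none of the 8 classes reached 1.5-fold. Hspa1a (chr17:34969190-34972156) had 105 and 156 CPM in CD8 T-like cells, a ratio of 0.57 (0.48 to 0.67). In CD4 T-like cells it had 230 and 243 CPM and in Treg-like cells 130 and 124 CPM, and both intervals spanned 0. B-like cells gave 123 and 135 CPM, a ratio of 0.14 (0.03 to 0.25). The Hspa1a ratios depended on which cells entered them. Without cycling cells they were 0.42 in CD8 T-like, 0.14 in CD4 T-like, 0.33 (0.04 to 0.62) in Treg-like and 0.19 in B-like cells, so that the Treg-like value turned from below to above 0.

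Hspa1b (chr17:34956436-34959238) had 51.5 and 60.6 CPM in CD8 T-like cells, a ratio of 0.23 (0.09 to 0.37). In CD4 T-like cells it was lower in the second library, at 117 against 90.8 CPM, a ratio of -0.37 (-0.51 to -0.23). Treg-like (67.4 and 71.99 CPM) and B-like cells (55.1 and 59.7 CPM) gave intervals that spanned 0. Hspa1a and Hspa1b encode nearly the same protein and their sequences are close to identical, so reads could be split between them or lost in the authors' counting, and single values of either are uncertain to that extent.

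The inducible pair varied by class far more than by library. Hspa1a ran from 105 CPM in CD8 T-like to 633 CPM in migratory DC-like cells in WT NOD, a 6.04-fold range, and from 124 CPM in Treg-like to 730 CPM in macrophage-like cells in the other library, a 5.91-fold range. Migratory DC-like and macrophage-like cells were the 2 highest in both libraries, and their intervals were apart from those of the next class, NK-like cells in WT NOD (272 CPM) and gamma-delta T-like cells in the other (317 CPM). Hspa1b had the same 2 classes on top, at 295 and 235 CPM in WT NOD and 192 and 351 CPM in the other library, though there the migratory DC-like interval overlapped that of gamma-delta T-like cells (165 CPM). Between the libraries these 2 classes differed in opposite directions. Hspa1b was 0.62 lower on the log2 scale (0.86 to 0.37 lower) in migratory DC-like cells and 0.58 higher (0.35 to 0.82) in macrophage-like cells when the second library was set against WT NOD.

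Dnajb1, the Hsp40 that feeds clients to Hsp70 and a sensitive heat shock factor 1 target (chr8:83608193-83612653), had smaller ratios in lymphocytes. It had 170 and 191 CPM in CD8 T-like, 206 and 234 CPM in CD4 T-like, 159 and 186 CPM in Treg-like and 171 and 184 CPM in B-like cells. The 4 ratios lay between 0.10 and 0.22, each with an interval above 0, and between 0.24 and 0.46 once cells were thinned to 2000 UMIs. In migratory DC-like cells, where Hspa1a and Hspa1b were lower, Dnajb1 was higher, at 176 and 281 CPM (0.67, 0.40 to 0.95), and in macrophage-like cells it had 191 and 272 CPM (0.50, 0.25 to 0.77). NK-like cells had its highest level in both libraries, at 276 and 290 CPM, with gamma-delta T-like cells next at 250 and 289 CPM and overlapping intervals.

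The mitochondrial pair differed in the same direction. Hspd1, the Hsp60 barrel (chr1:55077835-55088243), had 315 and 433 CPM in CD8 T-like, 272 and 354 CPM in CD4 T-like, 203 and 387 CPM in Treg-like and 218 and 334 CPM in B-like cells, with log2 ratios of 0.46, 0.38, 0.93 and 0.61. The Hspe1 lid (chr1:55088132-55091307) had 590 and 758 CPM, 588 and 679 CPM, 438 and 659 CPM and 597 and 808 CPM in the same order, with ratios of 0.36, 0.21, 0.59 and 0.44. The CPM intervals of the libraries were apart for both genes in the 4 large classes. In each of these 4 classes the ratio was larger for Hspd1 than for Hspe1. Treg-like cells had the largest ratio of the 4 for both genes, but not once cycling cells were left out, when they gave 0.62 and 0.36 and B-like cells 0.66 and 0.52. Macrophage-like cells had 116 and 235 CPM of Hspd1, a ratio of 1.01. In cycling CD4 T-like cells alone Hspe1 was lower in the second library (-0.17, -0.26 to -0.08) and the Hspd1 interval spanned 0. Hspe1 and Hspa8 have processed copies elsewhere in the genome, so their counts depend on how reads shared with those copies were treated.

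**Figure D2:**
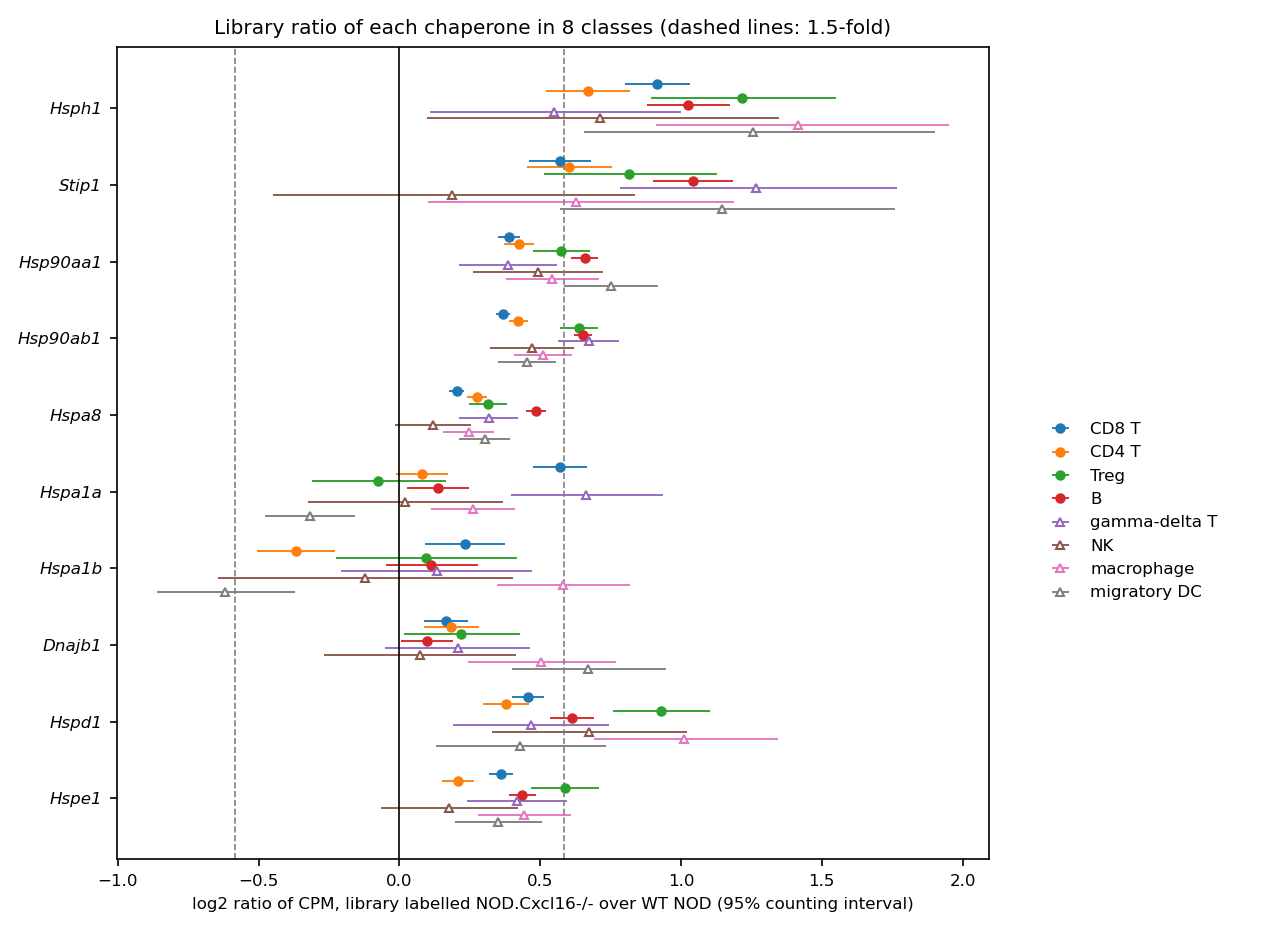
Log2 ratio of CPM, library labelled NOD.Cxcl16-/- over WT NOD, for each chaperone in 8 classes; filled circles are large classes, open triangles small ones, bars 95% counting intervals and dashed lines a 1.5-fold difference. Hsph1 lies between 0.55 and 1.41 in all classes, whereas Hspa1b runs from -0.62 to 0.58 across 0.

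All 10 genes passed the filter for counting in all 8 classes (a mean of at least 20 CPM over both libraries and at least 50 UMIs). Over the 40 combinations of a gene with a large class, 13 were at least 1.5-fold higher and 0 at least 1.5-fold lower in the library labelled NOD.Cxcl16-/-. In CD8 T-like cells 1 of 10 was higher by that much, beside 1.01% of 5558 genes tested, and 0 lower, beside 0.414%. In CD4 T-like cells 2 were higher (all genes: 1.0%) and 0 lower (0.439%). Treg-like and B-like cells had 5 each higher, beside 2.41% and 2.26% of all genes, and 0 lower, beside 2.38% and 0.542%. The small classes had more genes past the mark throughout: 3 members higher and 0 lower in gamma-delta T-like cells (7.86% and 2.76% of all genes), 2 and 0 in NK-like (6.43% and 3.83%), 3 and 0 in macrophage-like (7.33% and 6.48%) and 4 and 1 in migratory DC-like cells (7.75% and 6.56%). Since Hsph1 and Stip1 were chosen on this contrast, nothing is read from these shares.

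By the looser rule of an interval above 0, 35 of the 40 combinations were higher, 4 spanned 0 and 1, Hspa1b in CD4 T-like cells, was below 0. Among all genes tested an interval above 0 was found for 28.1% in CD8 T-like, 16.7% in CD4 T-like, 10.3% in Treg-like and 28.2% in B-like cells. Among kept barcodes that entered no gate, 9 of the 10 members had an interval above 0, beside 28.1% of 5691 genes tested. In the 4 large classes, in the same order, the median log2 ratio of the 10 genes was 0.38, 0.33, 0.58 and 0.55. For all genes tested it was 0.05, 0.02, -0.01 and 0.05. Hsph1 and Stip1, chosen on this contrast, are part of these counts and medians, so no support is read from either.

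Of 4612 genes tested in all 4 large classes, 8 (0.173%) were at least 1.5-fold higher in each of them and 6 (0.13%) at least 1.5-fold lower in each. Ordered by the smallest ratio over the 4 classes, Hsph1 stood 7th and Stip1 9th. Both were chosen for being higher in every large class, so their places follow from that choice and are no support. Hsp90aa1, Hspd1 and Hsp90ab1 stood 26th, 27th and 28th, Hspe1 86th, Hspa8 90th and Dnajb1 331st, whereas Hspa1a stood 1954th and Hspa1b 4272nd. Around Hsph1 and Stip1 in the first 10 were Cxcl9 (a chemokine, smallest ratio 1.27), Il1b (a cytokine, 0.91), Rpl10-ps3, Wdr89, Basp1, Gm14164, Gm19951 and Chordc1, a co-chaperone of Hsp90 with a smallest ratio of 0.52. The genes at the other end included Gm10260, Gm10076, Ifi27l2a, Polr2l, Xaf1, Rpl35, Irf7 and Mgst2. Among them was also Ubb, a polyubiquitin gene that heat shock also induces, which was lower by 0.71 to 0.89 on the log2 scale (1624 against 975.1 CPM in CD8 T-like cells). Rpl10-ps3 and Gm10260 are annotated as retrogenes, so their counts depend on reads shared with a parent gene.

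Related gene lists were set beside the 10 chaperones. Of 17 chaperone partners and genes linked to heat shock factor 1, 11 were tested in all large classes. The median over classes of the log2 ratio had a middle value of 0.32 over the 11. Of the list genes that this filter left out, some had medians below 0 and others above it. For all genes tested the median in each large class lay between -0.01 and 0.05. Fkbp4, an Hsp90 immunophilin, stood highest at 0.69, with 85.1 and 113 CPM in CD8 T-like and 52.1 and 91.3 CPM in B-like cells. Stub1, the ubiquitin ligase that tags chaperone clients, stood lowest at 0.07, with 61.1 and 61.3 CPM in CD8 T-like cells. At the 1.5-fold mark 0 of 13 tested members of the list were past it in CD8 T-like and 0 of 15 in CD4 T-like cells, 2 of 15 were higher and 1 lower in Treg-like, and 3 of 12 higher in B-like cells.

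All 8 subunits of the cytosolic chaperonin CCT, which folds actin and tubulin, were tested in each large class. Their medians ran from 0.19 for Cct2 to 0.44 for Cct6a, and 2 of 8 passed 1.5-fold in B-like cells and 0 in the other 3. The median of all genes tested lay between -0.01 and 0.05 in these classes. Of 14 genes for folding and stress in the endoplasmic reticulum, 12 were tested in all large classes, with a middle value of 0.32. Hsp90b1, the Hsp90 of that compartment, led them at 0.66 (356 and 508 CPM in CD8 T-like cells), and Dnajb9, a target of the unfolded protein response, came last at -0.22 (97.9 and 81.5 CPM in B-like cells). At least 1.5-fold higher were 0 of 13 tested in CD8 T-like, 1 of 12 in CD4 T-like and 4 of 13 each in Treg-like and B-like cells. The other mitochondrial folding and proteolysis genes did not stand with Hspd1 and Hspe1, having a middle value of 0.02 over 6 genes tested, between Timm44 (-0.11) and Hspa9 (0.20).

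Lists on the far side of 0 were the immediate-early genes and the cold-shock RNA-binding genes. The 11 immediate-early genes tested in all large classes, which respond within minutes to stimulation or tissue handling, had a middle value of -0.23, from Fosb (-0.40, with 172 and 116 CPM in B-like cells) to Atf3 (0.11). Cirbp and Rbm3, which are induced by mild cooling and repressed by heat, had medians of -0.32 and -0.43. Rbm3 gave 1308 and 962 CPM in CD8 T-like, 1103 and 822 CPM in CD4 T-like, 1169 and 881 CPM in Treg-like and 968 and 705 CPM in B-like cells. Its 4 ratios lay within -0.46 to -0.41. The 12 proteasome subunits had a middle value of 0.08, between Psmb3 (-0.04) and Psmd1 (0.25). No set test was run on any list.

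**Figure D3:**
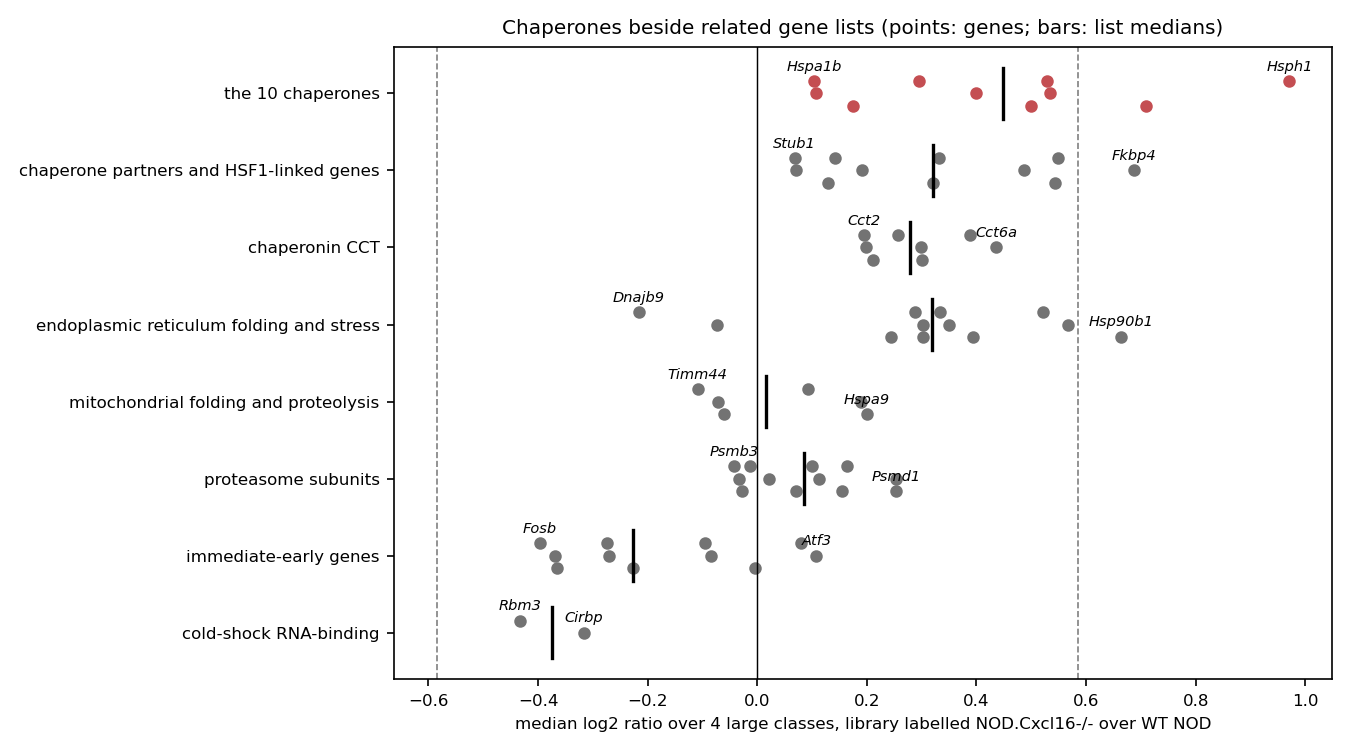
Median log2 ratio over the 4 large classes, library labelled NOD.Cxcl16-/- over WT NOD, for the 10 chaperones (red) and 7 related lists (grey); each point is a gene tested in all 4 classes, vertical bars are list medians and dashed lines a 1.5-fold difference. The chaperones spread from 0.10 (Hspa1b) to 0.97 (Hsph1), and the 2 cold-shock genes lie at -0.43 and -0.32.

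Likeness of pattern was measured as Pearson's r of log2(CPM + 1) over 16 profiles, the 8 classes in each library, among 4611 genes. The points share library and depth, so r describes this set alone. The profiles also hold the library contrast on which Hsph1 and Stip1 were chosen, so the likeness of these 2 genes to each other follows in part from that choice. The 5 genes most like Hsph1 were Gm14164 (0.90), Gm47283 (0.89, placed on chromosome Y by the annotation although both libraries are labelled female), Stip1 (0.87), Dnaja1 (0.86), which encodes another J-domain partner of Hsp70, and Ddah1 (0.83). The 5 most like Stip1 were Cct6a (0.92), Gm14164 (0.91), Gm47283 (0.90), Cacybp (0.89) and Eif3a (0.88). Hsp90aa1, Hspd1 and Hsp90ab1 were among the 12 nearest to Hsph1, with r from 0.80 to 0.83. Hspe1 (0.61), Dnajb1 (0.49) and Hspa8 (0.41) were farther off, and Hspa1a (-0.19) and Hspa1b (-0.20) had no likeness to it.

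Contrasts inside 1 library did not enter the choice of the genes. Cycling cells, with at least 2 of 10 cell-cycle genes detected, were compared with the rest of their class. In CD8 T-like cells of WT NOD (573 cycling, 1696 not), Stip1 was at 98.5 CPM in cycling and 58.2 CPM in other cells, and Hspd1 at 400.2 and 246 CPM. Hsp90aa1 had 826 and 574 CPM, Hsp90ab1 1993 and 1457 CPM, Hspa8 1690 and 1452 CPM and Hspe1 653 and 539 CPM. The remaining genes went the other way: Hspa1a had 76.0 against 128 CPM, Hspa1b 34.7 against 65.3 CPM, Dnajb1 126 against 207 CPM and Hsph1 53.5 against 68.5 CPM. Hsph1 and Stip1, alike between the libraries, thus differed in opposite directions here, with log2 ratios of -0.35 (-0.54 to -0.16) and 0.75 (0.58 to 0.92).

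The same split appeared in the library labelled NOD.Cxcl16-/- and in CD4 T-like cells. In CD8 T-like cells of the second library (298 cycling, 1195 not) the ratio of cycling to other cells was -0.31 for Hsph1, -0.34 for Hspa1a, -0.57 for Hspa1b and -0.76 for Dnajb1, against 0.44 for Stip1 and 0.73 for Hspd1. CD4 T-like cells gave -0.64 and -0.62 for Hsph1 in WT NOD and in the other library, -0.73 and -1.01 for Dnajb1, 0.83 and 0.36 for Stip1, and 1.11 and 0.62 for Hspd1. All of these intervals lay apart from 0. The median of all tested genes in the 4 contrasts was between -0.16 and -0.01. The signs alone therefore do not set the chaperones apart from other genes, and the share of all genes below 0 was not taken. In CD8 T-like cells of WT NOD the chaperones stood between percentile 6.37 (Hspa1b) and 87.5 (Stip1) of the tested genes. Hsph1 was at percentile 27.1 there and Hspe1 at 67.4, nearer the middle. Median depth was 9098 to 16889 UMIs in the cycling cells and 4045 to 5182 in the others, and its part in these ratios was not tested.

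Outside conventional T cells the split was less clear. In the second library Treg-like cells (70 cycling) had 0.71 for Hspd1 and -0.80 for Hspa1a, while Hsph1 (-0.21) had an interval that spanned 0. In B-like cells of that library (105 cycling) Hspd1 was again higher (0.89) and Dnajb1 lower (-0.71), but Hsph1 (0.12) and Stip1 (-0.17) both had intervals that spanned 0. The WT NOD library had fewer than 50 cycling cells in these 2 classes.

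**Figure D4:**
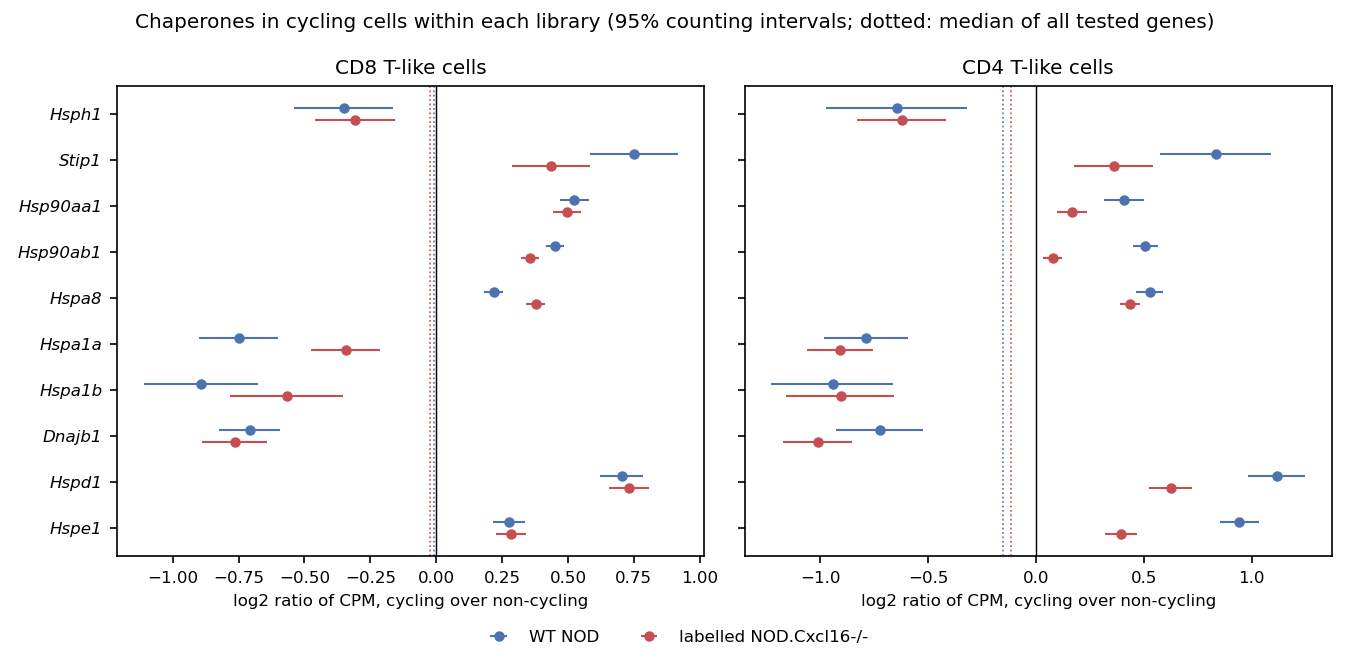
Log2 ratio of CPM in cycling over non-cycling cells of the same class, for CD8 T-like (left) and CD4 T-like cells (right), in WT NOD (blue) and the library labelled NOD.Cxcl16-/- (red); bars are 95% counting intervals and dotted lines the median of all tested genes. Hsph1, Hspa1a, Hspa1b and Dnajb1 lie below 0 in all 4 contrasts and the other 6 genes above it, as far as 1.11 for Hspd1. Among all tested genes, 14.0% to 17.8% were at least 1.5-fold higher in cycling cells.

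Cells with a naive-like pattern (at least 2 of 5 genes of naive T cells, and none of 8 effector genes) were set against antigen-experienced cells (at least 2 of those 8 and none of the 5), without cycling cells. CD4 T-like cells gave 243 naive-like and 214 experienced cells in WT NOD and 252 and 193 in the other library. Hspa1b was higher in experienced cells, at 151 against 81.1 CPM in WT NOD and 144 against 104 CPM in the other library. Dnajb1 was lower, at 208 against 254 CPM and 271 against 331 CPM. Hsp90ab1 was higher by 0.24 and 0.13 on the log2 scale. These 3 genes had intervals apart from 0 in each library, whereas Hsp90aa1 (-0.09 and -0.02), Hspa8 (-0.05 and -0.04), Hspd1 (0.06 and 0.17) and Hspe1 (-0.11 and 0.00) gave intervals that spanned 0. So did Stip1 (0.46 and 0.03) and Hspa1a (0.18 and 0.20), while Hsph1 (0.46 and 0.34) had an interval above 0 in the second library alone. Over all genes tested the median of this contrast was 0.22 and 0.20, and 25.4% and 23.9% lay above 1.5-fold, so that the Hspa1b ratio of 0.46 in the second library stood at percentile 68.8 and that of 0.88 in WT NOD at percentile 86.3. In CD8 T-like cells of WT NOD, with 57 naive-like cells, Hspa1a had 146 CPM in experienced and 81.5 CPM in naive-like cells. The other library had too few naive-like CD8 T-like cells for a value.

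The difference of Hsph1 and Stip1 between the libraries is given next within cell states, within depth ranges and by inducible UMIs. These are subsets, in part overlapping, of the cells on which both genes were chosen, so their values describe that difference and are no further support for it. Among non-cycling cells Hsph1 had ratios of 0.90 in CD8 T-like, 0.69 in CD4 T-like, 1.18 in Treg-like and 1.02 in B-like cells, and Stip1 had 0.75, 0.74, 0.76 and 1.14. Naive-like CD4 T-like cells gave 1.02 for Hsph1 (64.5 and 132 CPM) and 1.33 for Stip1 (44.2 and 113 CPM). Antigen-experienced CD4 T-like cells gave 0.90 and 0.89. Over 9 combinations of a class and a state, Hsph1 ran from 0.69 to 1.18 and Stip1 from 0.27 to 1.33. The smallest Stip1 value was in cycling CD4 T-like cells (0.27, 0.02 to 0.52). Hspa1b in contrast ran from -0.37 to 0.44.

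Depth differed between the libraries, so cells were also grouped by their UMIs. The depth ranges were 1000 to 3000, 3000 to 5000, 5000 to 8000, and 8000 UMIs or more. Over 16 combinations of a large class and a depth range, Hsph1 ran from 0.61 to 1.98 and Stip1 from 0.26 to 1.61. Hsp90aa1 ran from 0.175 to 0.90, Hsp90ab1 from 0.20 to 0.96, Dnajb1 from 0.05 to 0.59 and Hspd1 from 0.10 to 0.94. The ranges of Hspa8 (-0.07 to 0.61), Hspe1 (-0.07 to 0.76), Hspa1a (-1.42 to 1.225) and Hspa1b (-0.84 to 1.105) crossed 0. The ratios of all genes were not taken in these groups. The largest Hsph1 ratio was in CD8 T-like cells with the fewest UMIs, at 44.9 and 180 CPM, and it was 0.86 in those with 8000 UMIs or more.

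Transcripts of Hspa1a were more concentrated in single cells than those of Hsph1. After each cell was thinned to 2000 UMIs, 9.41% of B-like cells of WT NOD had an Hspa1a UMI and 3.71% had 3 or more, whereas 9.65% had an Hsph1 UMI and 0.309% had 3 or more. In B-like cells of the other library these shares were 12.7% and 3.78% for Hspa1a, and 18.98% and 0.646% for Hsph1. The thinning left out 101 and 50 cells, and before it 13.4% of WT NOD cells had an Hspa1a UMI and 19.98% an Hsph1 UMI. No class is known to lack these genes, so a background share from free RNA could not be taken from one.

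Cells with an Hspa1a UMI had an Hspa1b UMI more often than cells without one, and reads shared by the 2 near-identical genes could add to this. In B-like cells of WT NOD, Hspa1b was found in 38.5% of thinned cells with an Hspa1a UMI and in 3.82% of those without, and in the other library in 35.1% and 4.94%. The share with either gene was 12.6% in WT NOD and 16.8% in the other library for B-like cells, 18.9% and 23.7% for CD8 T-like cells, and 31.3% and 32.6% for CD4 T-like cells. In the second library macrophage-like cells had the highest share, 67.7%, while migratory DC-like cells had 54.9% in WT NOD and 46.4% in the other.

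Cells with and without a UMI of the inducible pair after thinning were therefore compared for the other chaperones, with all UMIs of those cells. Dnajb1 was higher in cells with it: 332 against 148 CPM in B-like cells of WT NOD and 339 against 151 CPM in those of the other library, a ratio of 1.16 in both. Hsph1 was higher too, at 116 against 45.0 CPM in WT NOD (1.35, 1.05 to 1.64) and at 151 against 102 CPM in the other library (0.55, 0.37 to 0.73). Stip1 differed less, with 78.0 against 56.1 CPM (0.47, 0.12 to 0.80) and 129 against 120 CPM (0.10, -0.09 to 0.29). In CD8 T-like and CD4 T-like cells the Stip1 ratio lay between -0.17 and 0.02 in the 4 values, each interval spanning 0. That of Hsph1 lay between 0.38 and 0.66 with intervals above 0. Cells with and without such a UMI were not matched for cycling or for depth before thinning, and the ratios of all genes were not taken. In these T cells Hspa1a and Hsph1 were lower and Stip1 higher in cycling cells, as given above, and the part of this was not tested.

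Among cells without a UMI of the inducible pair, Hsph1 and Stip1 again differed between the libraries, by ratios close to those of the whole class except for Hsph1 in Treg-like cells. Hsph1 had 57.7 and 110 CPM in CD8 T-like, 65.7 and 107 CPM in CD4 T-like, 57.0 and 116 CPM in Treg-like and 45.0 and 102 CPM in B-like cells. Its ratios there were 0.92, 0.69, 1.01 (whole class 1.22) and 1.17, and those of Stip1 were 0.56, 0.64, 0.82 and 1.08. Among cells with such a UMI the ratios were 0.72 in CD8 T-like, 0.56 in CD4 T-like and 0.37 in B-like cells for Hsph1, and 0.66, 0.56 and 0.71 for Stip1.

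**Figure D5:**
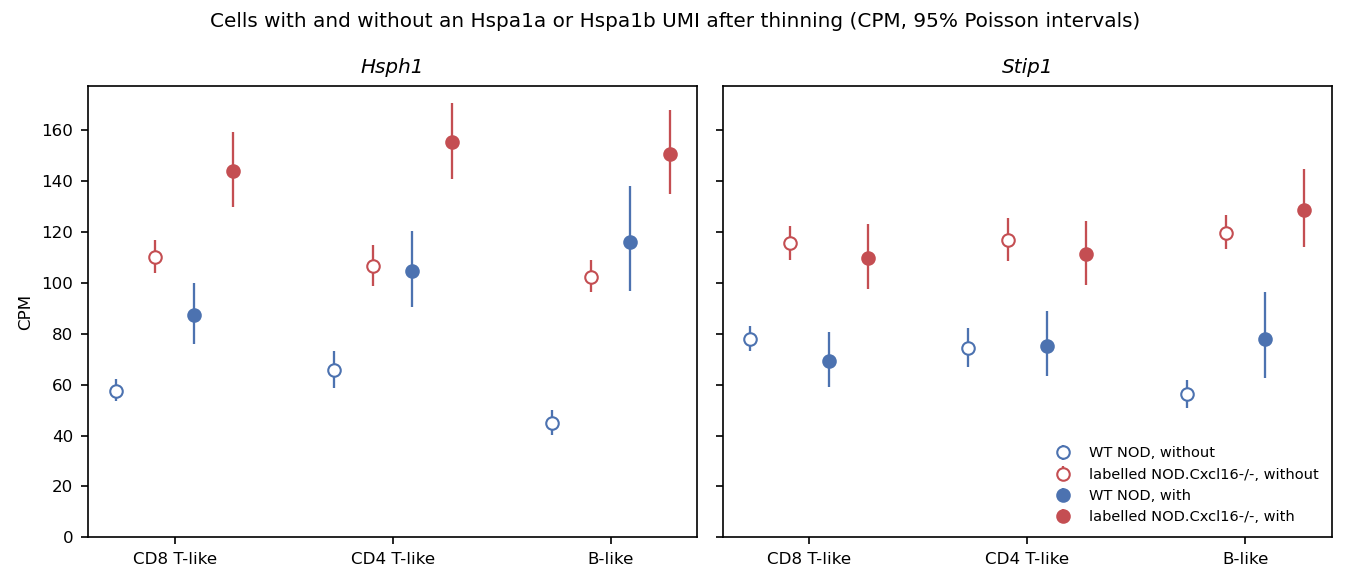
CPM of Hsph1 (left) and Stip1 (right) in cells without (open) and with (filled) an Hspa1a or Hspa1b UMI after thinning to 2000 UMIs, in WT NOD (blue) and the library labelled NOD.Cxcl16-/- (red); bars are 95% Poisson intervals. Hsph1 in B-like cells lies at 45.0 and 102 CPM without and 116 and 151 CPM with such a UMI, while the Stip1 points differ mainly by library.

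Values that moved beside these results were taken from the same classes. The cycling share was 25.2% and 19.96% in CD8 T-like, 9.26% and 10.8% in CD4 T-like, 12.4% and 16.6% in Treg-like and 2.21% and 5.09% in B-like cells. Median mitochondrial content lay between 0.868% and 1.282% of UMIs in the large classes of WT NOD and between 0.878% and 1.23% in those of the other library. Of the cells that the sort should remove, the 4 beta and alpha cell markers summed to 43.0 and 127 CPM in CD8 T-like and 50.5 and 122 CPM in B-like cells, higher in the second library, but to 308 and 257 CPM in CD4 T-like and 384 and 153 CPM in Treg-like cells, where they were lower. The part of these RNAs in the chaperone values was not tested. In the large classes the 3 endothelial markers summed to 25.3 to 128 CPM in WT NOD and 26.5 to 95.6 CPM in the other library, nearly all from Pecam1, which leukocytes also express, and Cdh5 and Kdr were both at 0 in Treg-like cells. The 3 acinar markers summed to at most 7.14 and 10.3 CPM in the large classes and to 8.36 CPM in NK-like cells of WT NOD, with a larger sum in those of the other library. In macrophage-like cells the alpha cell hormone gene Gcg had 25.5 and 924 CPM, and its part in the values of that class was not tested.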

How the data were processed

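The authors deposited 1 matrix of raw UMI counts (whole numbers, not normalised) per library. Per the submitters' processing notes, Cell Ranger 7.0.1 and the mouse build mm10 were used; whether intronic reads were counted is not given in the sources used here, which matters for levels of intron-containing genes. The lowest barcode total was 500 UMIs in both libraries, so cells had already been called. Gene coordinates are from GENCODE M21 (GRCm38), matched by gene ID.

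Barcodes with fewer than 500 genes (1582 in WT NOD and 311 in the other library) or over 10% mitochondrial UMIs (25 and 29) were removed, as were doublets (1532 and 889), scored by the scheme of Scrublet at a fixed 0.8% per 1000 barcodes. Cells were gated on markers, with a lineage's exclusion at 4 UMIs per 10000. The members and gene lists were chosen with earlier results of these data known, and gate settings (minimum markers, exclusion level) were adjusted after cell numbers per gate and library had been seen, before member values were. The groupings by cell state, depth and inducible UMIs, and the left-out barcodes, were added as descriptions after values were seen. Named genes were all 10 members, the list genes with the highest and lowest median, the 5 most like Hsph1 and Stip1, and the 10 at either end of the order over large classes, while Gcg and Pecam1 were named after their values were seen. 1 gene that the rule names is not reported here.

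With 1 library per group no test was possible, and no p-value or SD is given. Ratio and interval code was tested on simulated counts. Poisson intervals for CPM and conditional exact intervals for ratios are at the 95% level and cover counting error only, PCR duplicates being collapsed by UMI. Python 3.11.15, NumPy 2.4.6, SciPy 1.17.1, pandas 2.3.3, scikit-learn 1.9.0 and matplotlib 3.10.9 were used.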

Additional observations from a re-analysis of the deposited data

Results flagged for a closer look

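Hspa1a and Hspa1b went in opposite directions in different classes, with counting intervals on both sides of 0. For Hspa1a the log2 ratio of the library labelled NOD.Cxcl16-/- over WT NOD was 0.66 in gamma-delta T-like cells and -0.32 in the migratory DC-like class, and for Hspa1b it was -0.62 in migratory DC-like and 0.58 in macrophage-like cells. The difference between the classes was not tested.

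Barcodes that passed the cell filters but entered no gate (4593 and 2992) were outside the comparisons. Their median depth was 2139 UMIs in WT NOD and 4113.5 in the other library, and their cell types are not known. The part of depth and cell make-up in the values below was not tested. Of the 10 members, 9 had an interval above 0 there, beside 28.1% of all genes tested: Hsph1 with 0.97 (56.0 and 111 CPM), Stip1 with 0.60 (64.0 and 97.6 CPM), Hsp90ab1 with 0.54, Hspd1 with 0.52, Hsp90aa1 with 0.47, Hspe1 with 0.34, Dnajb1 with 0.20, Hspa8 with 0.12 and Hspa1b with 0.076 (0.001 to 0.151). Hspa1a had 0.05, with an interval that reached 0.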

How the results depend on the processing

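The smallest Hsph1 ratio over the 4 large classes (0.67, in CD4 T-like cells) lay between 0.61 and 0.72 under 11 alternatives (scaling, pseudocount, doublets kept, cell filters, depth, gates, cycling cells left out). The smallest Stip1 ratio (0.57, in CD8 T-like cells) became 0.70 with the mean of per-cell CPM, 0.70 with cells of 3000 to 8000 UMIs alone and 0.74 without cycling cells, where the smallest value was in CD4 T-like cells; in the other 8 it lay between 0.52 and 0.65. Combinations of a member with a large class at least 1.5-fold higher numbered 9 (doublets kept) to 14 (thinned to 2000 UMIs), against 13, and those lower stayed at 0. The median over large classes kept its sign for 9 members, and that of Hspa1b turned from 0.10 to -0.07 after thinning. Other medians that differed by over 1.5 times were those of Dnajb1 (0.17), with 0.30 (thinned) and 0.28 (3000 to 8000 UMIs), of Hspa1a (0.11), with 0.26 (without cycling cells), 0.25 (3000 to 8000 UMIs) and 0.07 (doublets kept), and of Hspa1b, with 0.07 (mean of per-cell CPM) and 0.05 (doublets kept). The cause was not tested. Without the filter on low genes, the share of genes past 1.5-fold in either direction went from 1.42% to 4.43% in CD8 T-like, 1.44% to 6.69% in CD4 T-like, 4.8% to 26.0% in Treg-like and 2.8% to 6.63% in B-like cells. No paired analysis was possible because each group has 1 library. Counting error limits the small classes most, where Hsph1 rested on as few as 26 UMIs in WT NOD.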

Other observations

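Barcodes removed for fewer than 500 genes (1582 in WT NOD and 311 in the library labelled NOD.Cxcl16-/-) had Hspa8 and Hspa1a lower in the second library. Hspa8 had 1632 CPM in WT NOD and 1250 CPM in the other library, a log2 ratio of -0.39 (-0.58 to -0.20), and Hspa1a had 331 and 191 CPM, a ratio of -0.79 (-1.30 to -0.32). Hsph1 was higher there as in the kept cells, at 46.0 and 90.6 CPM (0.96, 0.13 to 1.74), while Stip1 gave 0.43 with an interval that spanned 0. Barcodes removed as doublets (1532 and 889) had Hsph1 at 72.2 and 129 CPM (0.83) and Stip1 at 68.6 and 102 CPM (0.57).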
